A study of Mus musculus with 17 samples.

Results

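Plasmacytoid dendritic cells (pDC) were given CpG-A or CpG-B, each with or without the cytokine LIF. The genes described here are those whose difference from cells without CpG read with 1 sign under all 4 treatments. Each CpG group was set against its matching group without CpG, which gave 4 readings per gene: 1 for CpG-A and 1 for CpG-B against medium, and 1 each for CpG-A + LIF and CpG-B + LIF against LIF. Readings against the same group share its arrays, so the 4 readings are not independent. A gene is a member when its 4 readings have 1 sign. Of 19751 genes with a probe set of their own, 7646 (38.71%) are members, 3304 with readings above 0 and 4342 with readings below 0. Both CpG classes are known ligands of Toll-like receptor 9, but the 17 arrays hold no control oligonucleotide and no cells without that receptor, so whether the shared response runs through TLR9 was not tested.

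Total RNA was hybridised to 17 Affymetrix arrays. The cells were pDC from bone marrow of C57BL/6 mice, depleted of other cells on magnetic beads and then sorted by flow cytometry as B220+, SiglecH+ and intermediate for CD11c. The 2 groups without CpG were medium (2 arrays) and LIF (3). The 4 with it were CpG-B, CpG-B + LIF, CpG-A and CpG-A + LIF, each with 3, so 12 arrays with CpG stand against 5 without. LIF (leukaemia inhibitory factor), which activates STAT3, was present at 10 ng/ml for 20 to 24 h, and preceded CpG by 1 h where both were given. CpG-A (2216) or CpG-B (1826) was present at 6 µg/ml for 19 to 23 h. The series' design text gives wider times, 18 to 24 h for CpG and 1 or 24 h for LIF. The labels do not say whether replicates came from separate mice, so p-values measure the spread between arrays, which may be technical. In bulk RNA, fewer cells of a type and less RNA per cell cannot be told apart.

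The deposited intensities have lost their decimal mark, so a difference on the log2 scale is known only up to whole steps of 3.322, the log2 of 10. Each difference is given as its nearest reading, which lies between -1.66 and 1.66 (3.16-fold either way). A larger true change folds back and can read with the wrong sign. "Higher" and "lower" are therefore used only of members whose 4 readings are at most 1.11 in size (2.15-fold), where the next possible reading is a change of at least 4.64-fold the other way, and they are the direction of the nearest reading. Members with a larger reading are called unsettled in direction. Mean readings are the mean of the 4 readings on the log2 scale ± SE, and called genes are those with an adjusted p below 0.05 (limma, all 17 arrays, Benjamini-Hochberg over all 19751 genes). Levels cannot be recovered, so the sorted cell type could not be checked against its markers by level.

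TLR9 sits in the endosome of pDC, reaches it with the help of chaperones such as UNC93B1 and CNPY3, and signals through MyD88 to NF-kB and to the interferon regulatory factors. CpG-A forms aggregates that stay in early endosomes and is known as a strong inducer of type I interferon in pDC. CpG-B is known as a stronger driver of maturation and inflammatory cytokines. Activated pDC also enlarge their endoplasmic reticulum, the compartment in which secreted proteins are folded, and raise the machinery that presents peptides on MHC class I.

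Promoters of 4 members show letters that the sign rule did not use. These 4 were picked from the named genes because they hold a searched motif, so they do not show how common it is among members. They are RefSeq promoters on GRCm38.p6, cut to the 250 bases before the gene's start and written 5′ to 3′ on the gene's strand. Capitals mark the endoplasmic reticulum stress element (CCAAT, any 9 bases, then CCACG), on either strand, in the first 3, which encode proteins of the endoplasmic reticulum. In Gbp3, an interferon-induced GTPase, they mark matches to the interferon regulatory factor motif (GAAA, any 2 bases, GAAA), which overlap and lie on the reverse strand. The windows are chr8:84846932-84847181 (minus strand) for Calr, chr14:118937682-118937931 (plus strand) for Dnajc3, chr19:6046326-6046575 (plus strand) for Syvn1 and chr3:142559794-142560043 (plus strand) for Gbp3.
Calr: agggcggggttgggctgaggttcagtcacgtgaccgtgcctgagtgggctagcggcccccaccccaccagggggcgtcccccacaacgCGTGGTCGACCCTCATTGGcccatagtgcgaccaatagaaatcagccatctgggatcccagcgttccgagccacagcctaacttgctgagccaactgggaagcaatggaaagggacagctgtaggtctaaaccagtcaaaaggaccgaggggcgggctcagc
Dnajc3: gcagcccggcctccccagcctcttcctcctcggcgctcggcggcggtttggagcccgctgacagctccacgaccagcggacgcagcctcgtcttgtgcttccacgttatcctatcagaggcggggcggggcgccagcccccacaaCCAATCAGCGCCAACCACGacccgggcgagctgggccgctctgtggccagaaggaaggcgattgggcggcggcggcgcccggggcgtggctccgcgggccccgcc
Syvn1: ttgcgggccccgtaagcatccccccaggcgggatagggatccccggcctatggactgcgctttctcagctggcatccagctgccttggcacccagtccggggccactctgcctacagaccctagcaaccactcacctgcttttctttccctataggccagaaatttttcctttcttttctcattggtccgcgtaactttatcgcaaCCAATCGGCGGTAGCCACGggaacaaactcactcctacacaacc
Gbp3: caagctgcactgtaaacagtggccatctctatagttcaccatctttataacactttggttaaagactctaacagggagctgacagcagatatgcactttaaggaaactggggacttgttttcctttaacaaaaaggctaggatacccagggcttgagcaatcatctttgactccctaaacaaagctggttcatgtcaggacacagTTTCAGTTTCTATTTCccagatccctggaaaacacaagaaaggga

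Calr encodes calreticulin, a chaperone of the endoplasmic reticulum, and its mean reading was 0.86 ± 0.076 (adjusted p = 1.61e-07). Dnajc3, a co-chaperone that restrains the stress kinase PERK, read 0.75 ± 0.076 (adjusted p = 7.29e-07). Syvn1, the ubiquitin ligase that marks misfolded proteins of this compartment, read 0.77 ± 0.084 (adjusted p = 1.41e-06). Gbp3 read 0.69 ± 0.12 (adjusted p = 0.000188). All 4 genes read higher in every CpG group.

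Of the 7646 members, 6551 had all 4 readings within the limit, and 3234 of these were called: 1410 higher and 1824 lower, 7.14% and 9.23% of all genes. Over all genes, 27.3% were called for the mean reading, 12.9% above 0 and 14.4% below 0. The sign rule used the same readings, so these counts describe the members and support nothing. The median reading was 0.46 among called higher members and -0.45 among called lower ones, against -0.022 over all genes. The limit itself caps these readings. Of 4320 called members, 1086 had a reading past it and are not in the medians, so the size of the whole shared response is not known. Of the higher members 879 read between 0.28 and 0.55 and 46 above 0.83, and of the lower ones 1132 and 73 fell in the same ranges of size. Group by group, 16.7% (CpG-A), 19.2% (CpG-B), 17.4% (CpG-A + LIF) and 25.4% (CpG-B + LIF) of all genes were called. CpG-A and CpG-B were read against the same medium arrays, and the groups with LIF against the same LIF arrays. Noise in a shared control moves both of its readings the same way, so calls in all 4 groups are not independent. A stricter group of 437 members, 198 higher and 239 lower, was called in each of the 4 groups. It held 250 members without medium replicate 1, which took the calls in CpG-A from 3300 to 2128, and 220 without medium replicate 3, which took those in CpG-B from 3795 to 2451. At the other end, 3482 members were called in none of the 4 groups. The rule has no size limit: Lpcat4 and Arid3a were just inside it, with 1 reading of -0.00039 and -0.00054, and Grwd1 and Cul1 just outside, with 1 reading of -0.00009 and 0.00037 on the wrong side.

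For 831 of the 6551 members within the limit, the 12 CpG arrays did not overlap the 5 arrays without CpG, and over all genes 7.36% were apart in this way. Vcp, the p97 ATPase that pulls ubiquitinated proteins out of membranes and complexes, is one. Its readings were 0.76, 1.04 and 0.96 in CpG-A, 1.03, 1.26 and 0.98 in CpG-B, 0.88, 0.84 and 0.88 in CpG-A + LIF and 0.99, 1.08 and 0.89 in CpG-B + LIF, against 0.03 and -0.03 in medium and -0.036, -0.0071 and 0.044 in LIF. All 12 CpG arrays lie far above the 5 others, at a mean of 0.97 ± 0.076 (1.95-fold, adjusted p = 4.52e-08). Zeb2, a transcription factor of pDC development, read -0.71, -0.74 and -0.70 in CpG-A, -0.87, -1.07 and -0.93 in CpG-B, -0.64, -0.74 and -0.61 in CpG-A + LIF and -1.01, -0.98 and -0.74 in CpG-B + LIF, against 0.037 and -0.037 in medium and -0.012, 0.072 and -0.061 in LIF. Its CpG arrays all lie below the others, by a mean of -0.81 ± 0.073 (adjusted p = 1.85e-07).

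**Figure D1:**
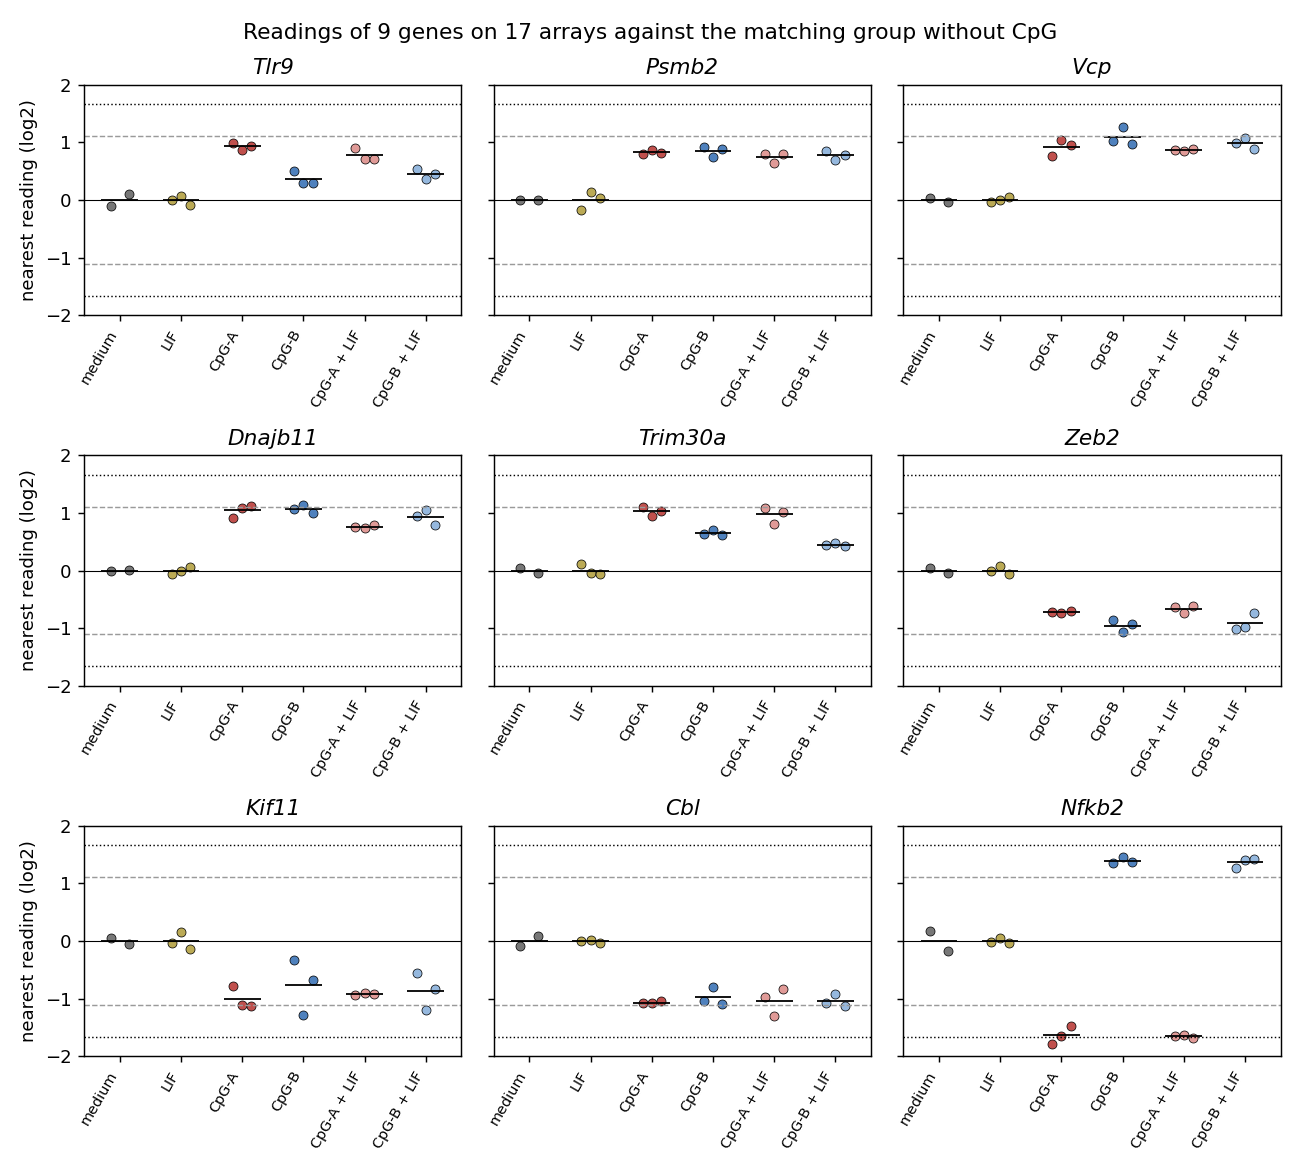
Nearest readings (log2) of 9 genes on each of 17 arrays, against the mean of medium or of LIF; bars are group means, dashed lines the limit of 1.11 and dotted lines the fold of the scale at 1.66. Tlr9, Psmb2, Vcp, Dnajb11 and Trim30a are above 0 and Zeb2, Kif11 and Cbl below 0 on all 12 CpG arrays, while Nfkb2 sits at the upper fold in CpG-B and at the lower in CpG-A.

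The arrays without LIF and those with LIF share no array, so genes chosen in one set can be read in the other. In a fit on medium, CpG-A and CpG-B alone (8 arrays), 16.1% of all genes were called, and 2035 genes were called with both readings of 1 sign and within the limit. Of these, 1909 (93.81%) had the same sign in the fit on LIF, CpG-A + LIF and CpG-B + LIF (9 arrays), and 1165 (57.25%) were also called there in the same direction, while 11 were called the opposite way. Over all genes, 19.1% were called in that fit and 66.92% had the same sign in both. In the reverse order, 2527 genes chosen with LIF had the same sign without it in 2357 (93.27%), were called the same way in 1227 (48.56%) and the opposite way in 14. Arrays with the same replicate number may come from 1 preparation of cells, and a change that folds back does so in both sets, so this agreement does not bear on directions. Without medium replicate 1 the first fit called 1681 genes and not 3179, and chose 729, of which 94.79% had the same sign and 67.76% were called the same way with LIF. Without medium replicate 3 it called 1614 and chose 700, of which 94.14% and 66.57% did so.

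**Figure D2:**
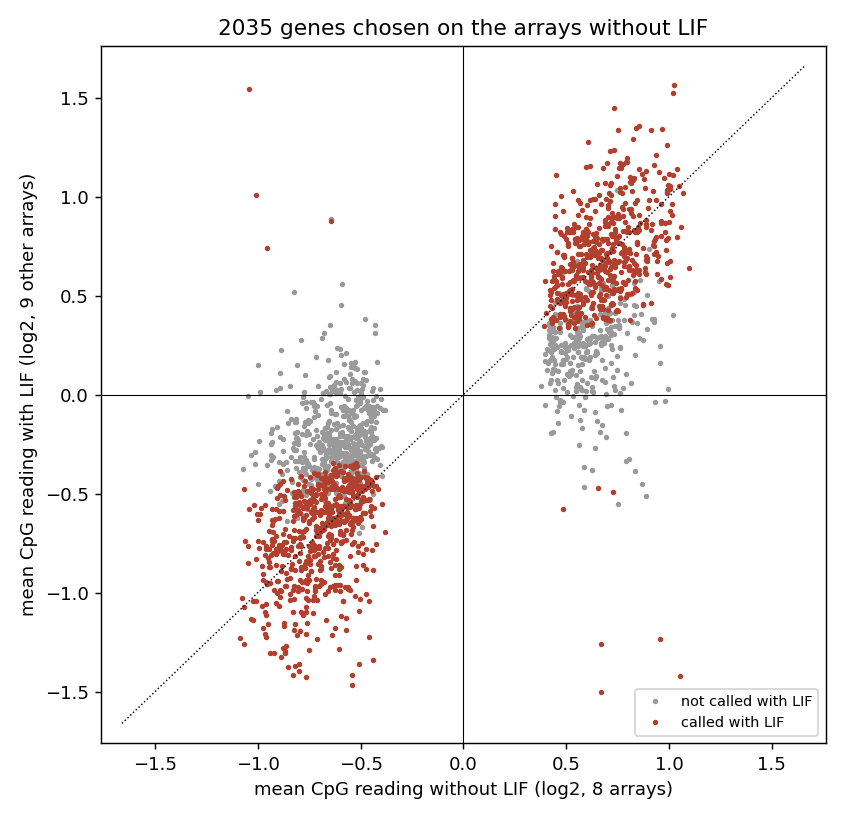
Mean CpG reading with LIF (9 arrays, y) against that without LIF (8 other arrays, x) for the 2035 genes chosen without LIF, both on the log2 scale; each point is a gene and red points were also called with LIF. Most points lie in the 2 quadrants of equal sign, 1909 in all, and the few red points in the other quadrants are the 11 called the opposite way.

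Among the genes of the receptor and its pathway (26 measured), 14 were members, 4 of them called higher, 3 called lower and 4 unsettled, with a median reading of 0.10. For all genes the shares were 38.71% members, 7.14% called higher and 9.23% called lower. Tlr9 itself rose in all 4 groups. Its readings were 0.99, 0.87 and 0.94 in CpG-A, 0.50, 0.30 and 0.30 in CpG-B, 0.91, 0.71 and 0.71 in CpG-A + LIF and 0.54, 0.37 and 0.44 in CpG-B + LIF, against -0.10 and 0.10 in medium and 0.0066, 0.073 and -0.08 in LIF. The mean was 0.63 ± 0.075 (1.55-fold, adjusted p = 3.89e-06), and CpG-A gave the larger rise, by 0.44 ± 0.08 (adjusted p of the difference = 0.000351). Cnpy3, the chaperone that TLR9 needs to leave the endoplasmic reticulum, read 0.59 ± 0.074 (adjusted p = 6.95e-06). Grn, which encodes granulin, a factor that helps CpG DNA reach TLR9, read 0.52 ± 0.065 (adjusted p = 7.56e-06), and its 4 group readings lay between 0.51 and 0.52. Tab2, an adaptor of the kinase TAK1, fell with a mean of -0.48 ± 0.093 (adjusted p = 0.000615). Irf5, a transcription factor downstream of MyD88, agreed in sign but was not called, at 0.10 ± 0.077 (adjusted p = 0.424). Irf7, the factor that drives interferon alpha genes, was below 0 in all groups with 1 reading past the limit (-0.72 in CpG-A, -1.45 in CpG-B, -0.26 in CpG-A + LIF and -0.91 in CpG-B + LIF), so its direction is unsettled. Myd88, the adaptor itself, was no member, with readings of 0.67, 0.14, -0.38 and -0.83 in the same order.

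NF-kB, the transcription factor family that TLR9 activates through MyD88, shows what the lost decimal mark hides. Of 27 measured genes of its subunits, feedback inhibitors and survival targets, 11 were members, a share near the 38.71% of all genes, and only 3 of them were within the limit. Another 8 were called in all 4 groups but lay on both sides of the fold within 1.11 of each other. Nfkb2, the p100 subunit gene, read -1.79, -1.65 and -1.47 in CpG-A and -1.64, -1.64 and -1.69 in CpG-A + LIF but 1.35, 1.47 and 1.38 in CpG-B and 1.27, 1.41 and 1.43 in CpG-B + LIF, against 0.17 and -0.17 in medium. Those values are neighbours on the folded scale and far from 0 in every group. Nfkbia, the inhibitor IkB alpha, read 1.50, 1.55, -1.56 and -1.54 in CpG-A and CpG-B and in the same with LIF, and Tnfaip3, the deubiquitinase A20, read -1.56, 1.51, -1.13 and -1.32. The sign rule therefore leaves out 266 genes (1.35% of all) that were called in every CpG group with readings close together across the fold. Within the limit, Birc3, an inhibitor of apoptosis and NF-kB target, rose with a mean of 0.58 ± 0.085 (adjusted p = 3.64e-05), and its neighbour Birc2 read 0.39 ± 0.086 (adjusted p = 0.0021). Birc2 was called only in the CpG-A groups, at 0.68, 0.20, 0.56 and 0.12 in CpG-A and CpG-B and in the same with LIF. Tnip2, an A20-binding inhibitor, read -0.54 ± 0.13 (adjusted p = 0.00378, and 0.0601 without medium replicate 1). Relb, the partner of p52, was unsettled, with readings of 1.64, 1.08, 1.27 and 0.86, all called and all above 0.

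Some cytokine genes were members, and few interferon genes were. Of 28 cytokines and chemokines measured, 12 were members, a share near the 38.71% of all genes, with 4 called higher, 2 called lower and 6 unsettled, all 6 of these above 0, and 4 more lay either side of the fold. Without medium replicate 1 or without medium replicate 3, 2 were called higher and none lower. Il23a, the p19 subunit of interleukin 23, read 0.47 ± 0.12 (adjusted p = 0.00465, and 0.0658 with LIF only). It was called only in the CpG-A groups, at 0.73, 0.33, 0.66 and 0.16 in CpG-A and CpG-B and in the same with LIF. Cxcl11, a chemokine for CXCR3, read 0.48 ± 0.12 (adjusted p = 0.00603), and Il15, a growth factor of NK cells, 0.57 ± 0.15 (adjusted p = 0.00669). Both lost their call without medium replicate 1, with adjusted p = 0.0557 for Cxcl11 and 0.105 for Il15. Each was called in both CpG-A groups and in neither CpG-B group, with Cxcl11 at 0.92, 0.33, 0.64 and 0.036 in CpG-A and CpG-B and in the same with LIF, and Il15 at 0.95, 0.17, 1.09 and 0.10. Il12b, the p40 chain of interleukins 12 and 23, was unsettled, with readings of 0.33, 1.14, 0.55 and 1.00 in CpG-A and CpG-B and in the same with LIF. Tnf read -1.01, 1.60, -1.38 and 1.32 in that order, either side of the fold, and Il6, at 0.067, -1.29, 0.54 and -0.70, Cxcl10, at 0.16, -0.79, 1.08 and -0.33, and Ifnb1, at 0.48, -0.45, -1.35 and -1.26, were not members. Of 13 type I and III interferon genes, Ifnl2, an interferon lambda, was the only one called as a member, at 0.54 ± 0.15 (adjusted p = 0.00858, 0.0703 without medium replicate 1 and 0.245 with LIF only). Of the 4 groups, Ifnl2 was called only in CpG-A without LIF, at 1.06, 0.42, 0.50 and 0.19 in the order used above. Ifna4 read -0.19, 0.21, -1.50 and 0.20.

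Interferon-stimulated genes (43 measured) had 17 members, a share near the 38.71% of all genes. Of these 6 were called higher and 11 were unsettled, 5 of them above 0 and 6 below, and 6 more genes of the list lay either side of the fold. Trim30a, a TRIM protein induced by interferon, read 1.11, 0.94 and 1.03 in CpG-A, 0.64, 0.70 and 0.62 in CpG-B, 1.09, 0.81 and 1.02 in CpG-A + LIF and 0.44, 0.49 and 0.43 in CpG-B + LIF, against 0.043 and -0.043 in medium and 0.11, -0.044 and -0.064 in LIF. No CpG array overlapped the others, the mean was 0.78 ± 0.072 (adjusted p = 2.63e-07), and CpG-A gave the larger rise by 0.45 ± 0.077 (adjusted p = 0.0002). Irf9, the DNA-binding part of the interferon-activated complex ISGF3, read 0.61 ± 0.10 (adjusted p = 0.000154), and Bst2, tetherin, an antiviral membrane protein that also marks pDC, 0.47 ± 0.10 (adjusted p = 0.00123). Without LIF, Bst2 read 0.24 (adjusted p = 0.330), and its call rests on the arrays with LIF. Stat2, the partner of Irf9, was called in all 4 groups but read -1.60, 0.88, 1.48 and 0.57, with 1 reading across the fold.

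Chaperones and folding factors of the endoplasmic reticulum were among the members called higher. Of the 30 genes measured for the unfolded protein response and for secretion, 19 were members: 11 were called higher, 1 lower and 7 were unsettled, all 7 above 0, and 7 more lay either side of the fold. The list's median reading was 0.49, against -0.022 over all genes, of which 38.71% were members and 7.14% were called higher. Dnajb11, a co-chaperone of BiP, read 0.75 to 1.14 (median 0.97) on the 12 CpG arrays and -0.057 to 0.062 on the 5 arrays without CpG. Those arrays do not overlap, and the mean was 0.95 ± 0.072 (1.93-fold, adjusted p = 3.41e-08). Dnajb9, another such co-chaperone and a target of XBP1, read 0.88 ± 0.10 (adjusted p = 1.67e-06). Hspa5, which encodes BiP itself, was unsettled because 2 readings passed the limit (0.98 in CpG-A, 1.14 in CpG-B, 0.96 in CpG-A + LIF and 1.25 in CpG-B + LIF). Manf, a factor secreted under this stress, read 0.93, 1.14, 0.75 and 1.06 in the same order. Xbp1, the transcription factor of this response, was no member (0.56, -0.25, 0.45 and -0.27), and Ern1, the sensor that splices it, fell with readings of -0.82, -0.47, -0.66 and -0.29. Pdia4, Sdf2l1, Creld2 and Hyou1, chaperones and folding factors of the same compartment, lay either side of the fold with CpG-A above 0 and CpG-B below. Hyou1, for example, read 1.45, -1.45, 1.25 and -1.35.

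The constitutive proteasome was the list with the largest share of members, against 38.71% of all genes. All 28 subunits measured agreed in sign, all 28 above 0, and all 28 were called, 18 of them within the limit, at means of 0.45 to 0.81, and 10 unsettled, at 0.88 to 1.29. The list's median reading was 0.72, and in 25 of 28 the 12 CpG arrays did not overlap the 5 others, against 7.36% of all genes. When each array was left out in turn, 27 to 28 subunits agreed in sign and all 28 stayed called. Psmb2, a beta subunit of the catalytic core, read 0.80, 0.87 and 0.83 in CpG-A, 0.93, 0.75 and 0.88 in CpG-B, 0.79, 0.64 and 0.80 in CpG-A + LIF and 0.86, 0.70 and 0.78 in CpG-B + LIF, against -0.0044 and 0.0044 in medium and -0.18, 0.15 and 0.03 in LIF. Its 4 group readings lay between 0.74 and 0.85, and the mean was 0.80 ± 0.074 (1.74-fold, adjusted p = 2.59e-07). Among the alpha subunits of the core ring, Psma5 read 0.81 ± 0.075 (adjusted p = 2.83e-07) and Psma4 0.72 ± 0.07 (adjusted p = 4.46e-07). Psmb4, another beta subunit, read 0.64 ± 0.067 (adjusted p = 1.02e-06). The 10 unsettled subunits were 9 of the regulatory particle, which unfolds substrates, and Psmb7 of the core. Only 2 of the 18 settled subunits differed between CpG-A and CpG-B (Psmb3 and Psmc1, both larger with CpG-B).

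**Figure D3:**
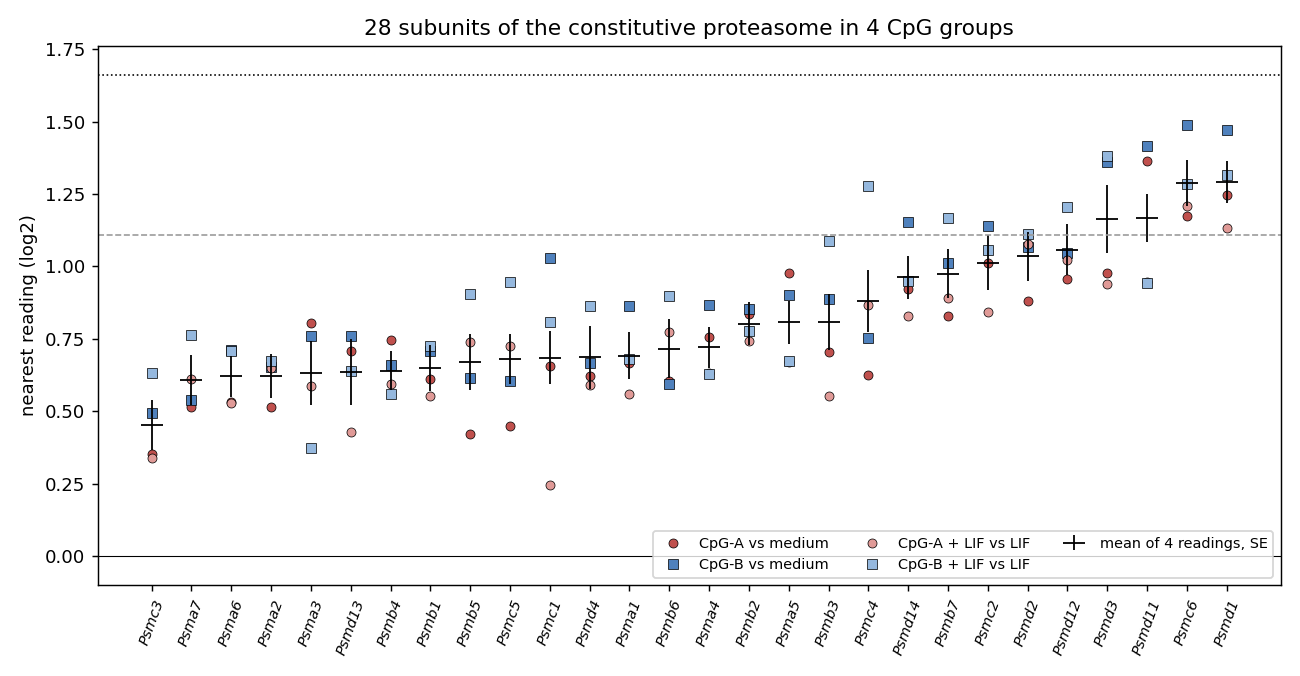
Readings (log2, y) of the 28 measured proteasome subunits in the 4 CpG groups, ordered by their mean (black bars, SE of the fit); the dashed line is the limit of 1.11 and the dotted line the fold at 1.66. Every point is above 0, and the subunits at the right, from Psmc4 on, have at least 1 reading past the limit.

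Factors that feed the proteasome were among the members with the highest means within the limit of 1.11. Of those called in all 4 groups, the first was Nploc4, a p97 cofactor, at 1.05 ± 0.076 (2.07-fold, adjusted p = 2.26e-08). Selenos, a selenoprotein that ties p97 to the membrane of the endoplasmic reticulum, followed at 1.04 ± 0.089 (adjusted p = 1.09e-07), and Vcp, p97 itself, is among the 8 highest. A list of p97 and of degradation from the endoplasmic reticulum was drawn up after these values were seen and was not tested. In it 20 of 26 measured genes were members, 13 called higher, 3 lower and 3 unsettled. Over all genes 38.71% were members, 7.14% called higher and 9.23% called lower. Ufd1, the other core cofactor, read 0.81 ± 0.073, Os9, a lectin that picks misfolded glycoproteins, 0.81 ± 0.093, Derl1, part of the export channel, 0.75 ± 0.092, and Plaa, a ubiquitin-binding cofactor, 0.76 ± 0.081. Other genes of the list went the other way. In the separate fits without and with LIF, Ngly1 read -0.64 and -0.38, Edem3 -0.41 and -0.40, and Rnf5 -0.765 and -0.33. The others at the top were Napa, the SNARE recycling factor alpha-SNAP (1.00 ± 0.11), Slc6a9, a glycine transporter (0.99 ± 0.14), Ddx24, an RNA helicase (0.96 ± 0.10), Heatr6 (0.96 ± 0.074) and Dnajb11.

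The proteasome supplies MHC class I presentation with peptides. Of 17 genes measured for that pathway 13 were members, 8 called higher, 1 not called and 4 unsettled, all 4 above 0. Calr is counted both here and in the list of the unfolded protein response. Of the others 2 lay either side of the fold and 2 disagreed in sign, and the median reading was 0.62. Of all genes 38.71% were members, 7.14% called higher and 9.23% called lower. Tap2, a subunit of the peptide transporter, read 0.73 ± 0.095 (adjusted p = 1.05e-05). Psmb9, a subunit of the immunoproteasome, read 0.59 ± 0.083 (adjusted p = 2.61e-05) and Tapbpl, a peptide editor, 0.68 ± 0.10 (adjusted p = 4.69e-05). MHC class II presentation (14 measured) was mixed, with 1 gene called higher, 2 lower and 2 unsettled below 0. Rfx5, a regulator of class II promoters, read 0.77 ± 0.11 (adjusted p = 3.28e-05), and Marchf1, the ligase that removes class II from the surface, fell with a mean of -0.53 ± 0.11 (adjusted p = 0.001). Without LIF, Marchf1 read -0.36 (adjusted p = 0.164), and its call rests on the arrays with LIF. Of 22 co-stimulation and maturation genes 10 were members, with 1 called higher, 1 lower and 5 unsettled. Icosl, a ligand of the T cell receptor ICOS, read 0.76 ± 0.14 (adjusted p = 0.000386). Cd40 agreed in sign and was not called, at 0.26 ± 0.11 (adjusted p = 0.0995), although without medium replicate 3 it read 0.43 (adjusted p = 0.0109) and without CpG-A + LIF replicate 2 it read 0.30 (adjusted p = 0.04999). Cd86 was unsettled, at -0.86, -0.46, -1.50 and -0.62, and Cd80, a ligand of the same receptors, lay either side of the fold (-1.24, -1.19, 1.08 and 1.45), with all 4 readings called in Cd80 and 3 in Cd86. Ccr7, the receptor that leads mature dendritic cells to lymph nodes, was no member, at -0.60, 0.76, -0.25 and 1.10.

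**Figure D4:**
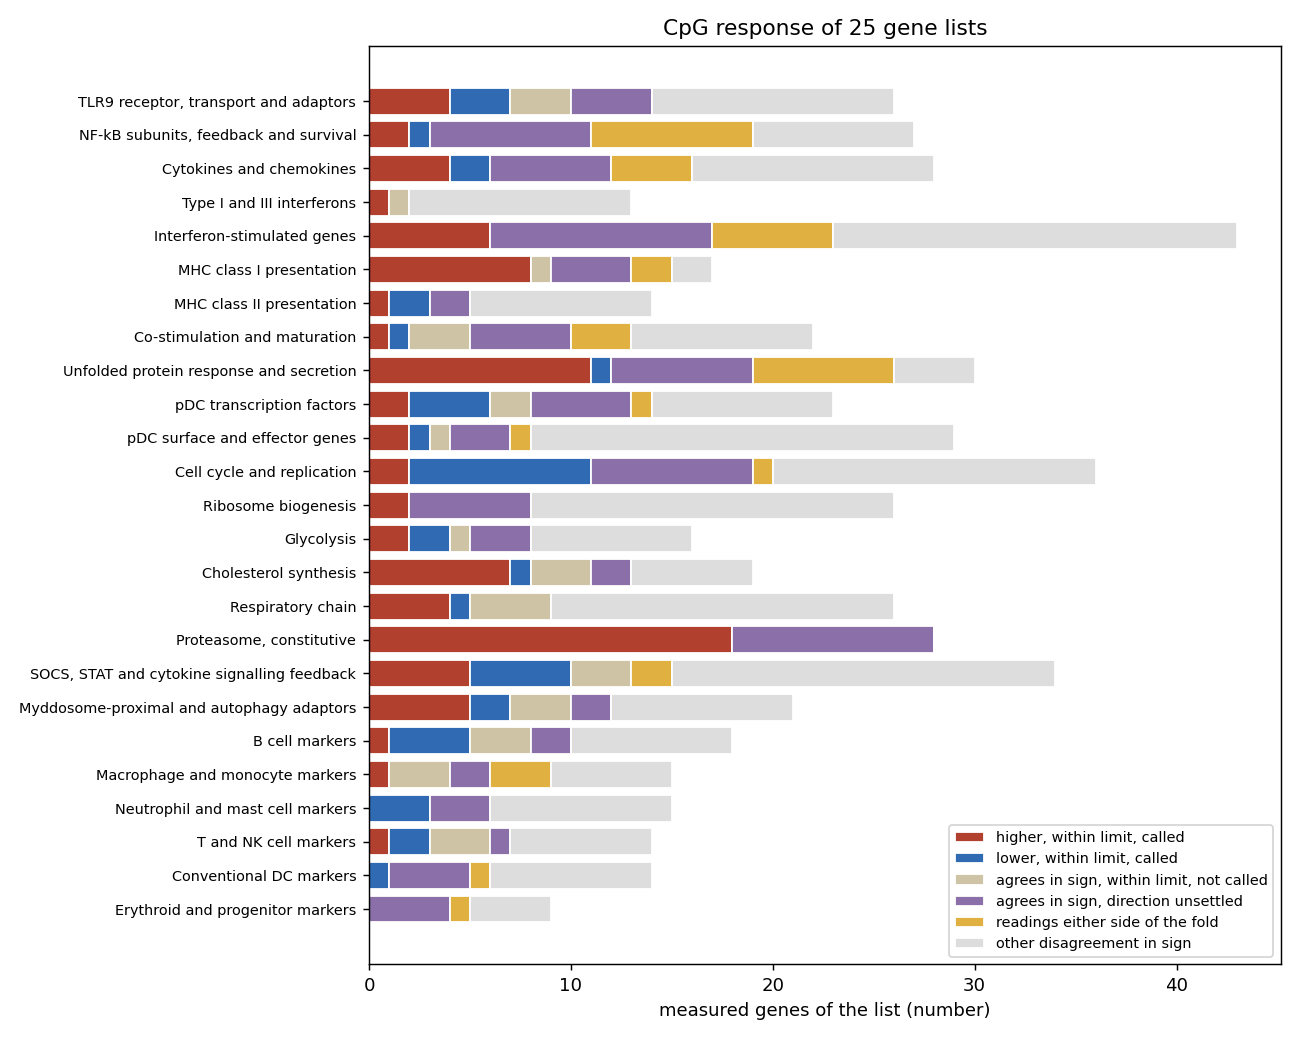
Number of measured genes of each of 25 lists (x) that were called higher or lower within the limit, agreed in sign without a call, agreed in sign with an unsettled direction, lay either side of the fold, or otherwise disagreed in sign. The proteasome bar holds members throughout, 18 called higher and 10 unsettled, while the interferon bar holds 2 members of 13.

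Downstream adaptors and feedback regulators split, where 7.14% of all genes were called higher and 9.23% lower as members. Of 21 genes of the kinases TBK1 and IKK epsilon, of mTOR and of autophagy, 5 were called higher and 2 lower, and 2 were unsettled above 0. Lamp1, a lysosomal membrane protein, read 0.89 ± 0.07 (adjusted p = 5.06e-08). Tank, a scaffold of TBK1, read 0.74 ± 0.08 (adjusted p = 1.39e-06), Rheb, the GTPase that activates mTOR, 0.61 ± 0.08 (adjusted p = 1.33e-05), and Rubcn, an autophagy regulator, -0.53 ± 0.091 (adjusted p = 0.000216). Of 34 SOCS, STAT and related feedback genes, 5 were called higher and 5 lower. Without CpG-B replicate 2 or LIF replicate 2, 3 were called higher, and without medium replicate 1, 3 lower. Ptpn2, a phosphatase that turns off JAK and STAT proteins, rose at 0.86 ± 0.10 (adjusted p = 4.14e-06), and the kinase Tyk2, which serves interferon receptors, read -0.52 ± 0.10 (adjusted p = 0.000667). Pias3, a SUMO ligase that restrains STAT3, read -0.62 ± 0.13 (adjusted p = 0.00106, and 0.0525 without LIF).

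The cell cycle was the list with the most genes called lower, where 38.71% of all genes were members and 9.23% were called lower. Of 36 genes, 19 were members, 9 called lower, 2 higher and 8 unsettled, 5 of these below 0, and the median reading was -0.16. Kif11, the motor that separates spindle poles, read -0.79, -1.10 and -1.14 in CpG-A, -0.33, -1.28 and -0.68 in CpG-B, -0.93, -0.91 and -0.92 in CpG-A + LIF and -0.56, -1.20 and -0.84 in CpG-B + LIF, against 0.045 and -0.045 in medium and -0.028, 0.16 and -0.13 in LIF. The CpG-B arrays spread widely, but all 12 CpG arrays lie below the 5 others, at a mean of -0.89 ± 0.13 (adjusted p = 3.51e-05). Cdc20, the activator of the anaphase-promoting complex, read -0.81 ± 0.088 (adjusted p = 1.55e-06), and cyclin A, Ccna2, -0.55 ± 0.10 (adjusted p = 0.00031). Ccna2 was called only in the CpG-A groups (-0.93, -0.43, -0.51 and -0.34 in CpG-A and CpG-B and in the same with LIF). Mki67, the proliferation marker Ki-67, was unsettled, at -0.96, -0.55, -1.11 and -0.88. The 2 that rose were the G1 cyclins E, and Ccne1 read 0.53 ± 0.10 (adjusted p = 0.000409). Ccne1 was called only in the CpG-B groups (0.39, 0.66, 0.28 and 0.78 in the same order). Mitotic kinesins also stood among the lowest means called in all 4 groups within the limit of 1.11, where Kif23 was lowest at -1.05 ± 0.12 (adjusted p = 2.35e-06), and Kif18b read -0.95 ± 0.12. The others of that group were Cbl, a ubiquitin ligase of receptor signalling (-1.03 ± 0.085, adjusted p = 7.67e-08), Pcmtd2 (-1.01 ± 0.13), Vps37a, a subunit of the ESCRT-I sorting complex (-0.96 ± 0.10), Bbs9, of the ciliary BBSome (-0.96 ± 0.11), Dnah8, a dynein heavy chain (-0.96 ± 0.10), and Hipk2, a nuclear kinase (-0.95 ± 0.083). Cbl read -1.31 to -0.81 (median -1.06) on the 12 CpG arrays and -0.079 to 0.079 on the 5 arrays without CpG, so that its arrays do not overlap.

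The pDC transcription factors held members in both directions, where 7.14% of all genes were called higher and 9.23% lower as members. Of 23 measured, 13 were members, 4 called lower, 2 higher and 5 unsettled, all 5 below 0, with a list median of -0.12. Tcf4, the E protein that maintains pDC identity, was below 0 in every group and read further from 0 with CpG-B (-0.38 in CpG-A, -1.41 in CpG-B, -0.30 in CpG-A + LIF and -1.50 in CpG-B + LIF), and is unsettled. Tcf12, a related E protein, was within the limit and had a mean of -0.48 ± 0.086 (adjusted p = 0.00028). It was called only in the CpG-B groups (-0.13, -0.87, -0.16 and -0.76), with a difference between classes of 0.67 ± 0.092 (adjusted p = 1.89e-05), and the comparison of 12 with 5 arrays gave an adjusted p of 0.0671. Etv6, a repressor that shapes pDC, rose at 0.91 ± 0.11 (adjusted p = 4.38e-06), and Zfp366, or DC-SCRIPT, at 0.70 ± 0.13 (adjusted p = 0.000488). Zfp366 was called only in the CpG-B groups (0.50, 0.95, 0.46 and 0.87 in CpG-A and CpG-B and in the same with LIF). Spib, another pDC factor, was no member (0.26, -0.74, 0.50 and -0.44). Of 29 pDC surface and effector genes, 7 were members, against 38.71% of all genes. Ly6d, a marker of pDC from lymphoid precursors, rose at 0.49 ± 0.074 (adjusted p = 5.65e-05), and Blnk, a signalling adaptor, fell at -0.51 ± 0.10 (adjusted p = 0.000478). Siglech, part of the sorting gate, was called in all 4 groups but changed sign with the CpG class, at -0.58, 1.40, -0.74 and 0.72.

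Markers of other cell types were read in the same way, where 38.71% of all genes were members, 7.14% called higher and 9.23% called lower. Of 18 B cell markers, which pDC share in part, 10 were members, 1 called higher, 4 lower and 2 unsettled below 0, with a median reading of -0.32. Rag1, a recombinase of lymphoid precursors, read -0.61 ± 0.12 (adjusted p = 0.000596). Of 15 macrophage and monocyte markers 1 was called higher and 2 were unsettled. That call was lost without medium replicate 3, and also without 1 of many other arrays. Of 15 neutrophil and mast cell markers 3 were called lower (1 without medium replicate 1) and 3 were unsettled. Of 14 T and NK cell markers 1 was called higher, 2 lower and 1 was unsettled, and of 14 conventional dendritic cell markers 1 was called lower and 4 were unsettled. Without medium replicate 1, no B cell marker was called higher and no T and NK cell or conventional dendritic cell marker lower. Without LIF replicate 3, 3 conventional dendritic cell markers were called lower. The 4 members among 9 erythroid and progenitor markers were all unsettled. Levels are lost, so summed levels of these lists cannot be given, and their part in the results above was not tested.

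The metabolic lists held members in both directions, where 38.71% of all genes were members, 7.14% called higher and 9.23% called lower. In cholesterol synthesis (19 measured) 13 were members, 7 called higher, 1 lower and 2 unsettled above 0, with a median of 0.32. Without medium replicate 1, 4 were called higher. Hsd17b7 and Cyp51, enzymes of its later steps, read 0.70 ± 0.12 (adjusted p = 0.000198) and 0.42 ± 0.084 (adjusted p = 0.000916), while Srebf2, the transcription factor of the pathway, fell at -0.37 ± 0.066 (adjusted p = 0.000261). Of 26 respiratory chain genes 9 were members, 4 called higher and 1 lower, led by cytochrome c, Cycs, at 0.84 ± 0.11 (adjusted p = 1.20e-05). Glycolysis (16 measured) had 8 members, 2 called higher, 2 lower and 3 unsettled. Without medium replicate 1 or without medium replicate 3, 1 was called higher and 1 lower. Pgk1, phosphoglycerate kinase, read 0.55 ± 0.12 (adjusted p = 0.00156, 0.0826 without LIF and 0.0731 in the comparison of 12 with 5 arrays), and was called only in the CpG-B groups (0.032, 0.92, 0.23 and 1.01 in CpG-A and CpG-B and in the same with LIF). Ribosome biogenesis (26 measured) had 8 members, 2 called higher and 6 unsettled. Npm1, the nucleolar protein nucleophosmin, was a member by its sign only, since CpG-A barely moved it (0.0011 in CpG-A, 0.91 in CpG-B, 0.087 in CpG-A + LIF and 1.02 in CpG-B + LIF).

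Members share a sign, but the size of the reading differed between CpG-A and CpG-B in some of them. Of the 3234 called members within the limit, 820 (25.4%) differed between the CpG classes at an adjusted p under 0.05, against 25.1% of all genes. The share over all genes can hold differences made by the fold. Nfkb2, for example, differed by -3.03 (CpG-A minus CpG-B), with readings that are neighbours on the folded scale. Among members, the sign rule and the limit bound the difference. These shares therefore cannot show whether members differ between the classes as often as other genes. Among higher members 147 rose more with CpG-A and 322 more with CpG-B, and among lower members 155 fell more with CpG-A and 196 more with CpG-B. The median size of the difference was 0.18, against a median size of the mean reading of 0.46. Npm1 differed by -0.92 ± 0.093 (CpG-A minus CpG-B, adjusted p = 5.10e-07). Chosen after their values were seen, Tcp1, a subunit of the cytosolic chaperonin, read 0.085 in CpG-A, 0.80 in CpG-B, 0.15 in CpG-A + LIF and 1.04 in CpG-B + LIF, a difference of -0.81 ± 0.081 (adjusted p = 4.55e-07), and Pdzd8, a lipid transfer protein of the endoplasmic reticulum, read 0.82 in CpG-A, 0.13 in CpG-B, 0.92 in CpG-A + LIF and 0.074 in CpG-B + LIF, a difference of 0.77 ± 0.08 (adjusted p = 6.76e-07). At the other end, Nploc4 differed by 0.058 ± 0.081 (adjusted p = 0.651) and Grn by -0.0064 ± 0.07 (adjusted p = 0.961).

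**Figure D5:**
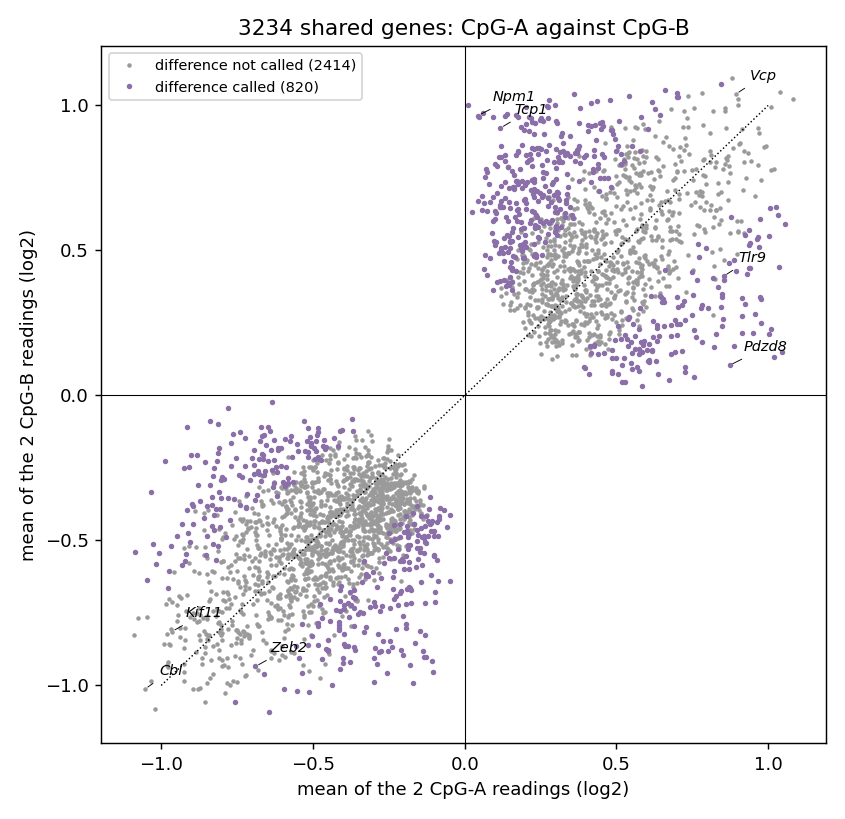
Mean of the CpG-B readings (y) against the mean of the CpG-A readings (x), both log2, for the 3234 called members within the limit; each point is a gene, purple where the classes differed (820). Points lie in 2 quadrants because the rule asked for equal signs, and purple points are more frequent above the diagonal at the upper right (322) than below it (147).

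Few shared genes were called for a difference with LIF. The CpG response with LIF differed from that without it in 7 of the 3234 members (0.216%), and 188 members differed at an unadjusted p under 0.05 (limma). Over all genes the share was 2.28%, but it can hold differences made by the fold, which the limit keeps out of the members. Nfkbia, for example, read 1.52 without LIF and -1.55 with it, values that are neighbours on the folded scale. The shares are therefore not alike. The rule asks for 1 sign with and without LIF and thereby keeps genes that LIF turns round out of the members. All 7 were lower members. Tbc1d9 read -0.11 in CpG-A, -0.20 in CpG-B, -0.94 in CpG-A + LIF and -1.07 in CpG-B + LIF, and so fell mainly with LIF present, a difference of -0.85 ± 0.16 (adjusted p = 0.00354). Klf4, a transcription factor, read -0.62 in CpG-A, -0.83 in CpG-B, -0.076 in CpG-A + LIF and -0.043 in CpG-B + LIF and fell mainly without LIF, a difference of 0.67 ± 0.16 (adjusted p = 0.0363). The count ran from 1 (without medium replicate 1) to 6 when arrays were left out in turn, so it rests on single arrays.

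The promoter motifs were counted in the first listed promoter of 15482 genes, 1126 of called higher members and 1478 of called lower ones, on both strands. The interferon regulatory factor motif was in 4.17% of higher and 1.76% of lower members, against 2.92% of all genes, and in 35.29% of the interferon-stimulated genes (12 of 34). The stress element was in 0.53% of higher members, 0.20% of lower ones and 0.12% of all genes, and in 7 of 25 genes of the unfolded protein response. The kappa B motif was in 4.26%, 3.72% and 4.16%, and the E box CACGTG in 9.41%, 8.46% and 7.05%. The cell cycle element TTTGAA was in 9.06%, 11.16% and 13.71%, and the E2F motif TTTCCCGC in 1.42%, 1.69% and 1.34%. Overlaps between motifs were not removed, and a match is a description of the letters, not of binding.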

How the data were processed

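Values are linear intensities that the authors made with RMA, per the submitters' processing notes. The sources used here name no version, other tool or genome build. The deposited digits have lost their decimal mark, so log2 of the digits was taken modulo 3.322. Group means were circular means, and each array was placed by its shortest deviation from its group mean. Probe sets with exactly 1 symbol were kept (21354 of 24680), with 1 probe set per gene, the one with the most listed accessions. limma 3.58.1 (R 4.3.3) fitted 1 coefficient per group over 17 arrays (11 residual degrees of freedom), with Benjamini-Hochberg adjustment. The median standard deviation within groups was 0.19. Precision is limited by the number of arrays. Simulated data held 40 changed genes for each size of change, with the same change in all 4 CpG groups and independent noise on each array. With true changes of 0.5 and 1, 72.5% and 97.5% of changed genes were called for the mean reading, and with -0.5 and -1, 55% and 100%. The gap between rises and falls was not tested, and noise shared between arrays was not simulated. A true change of 2.2 was called in 97.5% and read at a median of -1.11, with the wrong sign.

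Named genes were, per list, up to 4 called members within the limit with the smallest adjusted p, the 8 highest and 8 lowest means within the limit called in all 4 groups, a set of known pDC and TLR9 genes, and the genes nearest the sign rule. Not all of them are printed. Any other gene is said to be chosen after its values were seen or belongs to a list whose count is given. Members and lists were chosen with earlier results of these data known.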

Additional observations from a re-analysis of the deposited data

Results flagged for a closer look

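In 7 members the CpG response with LIF differed from that without LIF by a test of the difference itself (limma, all 17 arrays, adjusted over all genes). The difference, with minus without LIF on the log2 scale, was -0.85 ± 0.16 in Tbc1d9 (adjusted p = 0.00354), -0.92 ± 0.17 in Moxd1 (adjusted p = 0.00392), -0.76 ± 0.17 in Il18r1, the interleukin 18 receptor (adjusted p = 0.0219), -0.74 ± 0.18 in Tspan33 (adjusted p = 0.0336) and -0.79 ± 0.20 in Bank1, a B cell scaffold protein (adjusted p = 0.0441). Those 5 genes were lower mainly with LIF present. In Klf4 it was 0.67 ± 0.16 (adjusted p = 0.0363) and in Soga1 0.68 ± 0.17 (adjusted p = 0.0432), which were lower mainly without LIF. Both responses use 3 arrays per CpG group, and that without LIF rests on 2 medium arrays.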

How the results depend on the processing

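Each alternative changed 1 choice. Counts of called and agreeing genes stayed within 1.5 times of those reported under the circular mean, unfolding at the widest gap, centring, array weights, the other probe set per gene and without the noisiest 0.25 of genes, apart from the LIF difference. The comparison of all 12 with all 5 arrays gave a count of called genes within that range, and no 4 readings to agree. With the readings without LIF only, 3317 genes were called and 13930 agreed in sign, and with LIF only 13107 agreed, since 2 readings had to agree and not 4. Members differing with LIF numbered 2 with the circular mean, 2 with unfolding and 17 without the noisiest genes. At the tighter limit of 0.83, 0 of 2279 did (limma; 90 at an unadjusted p under 0.05), 433 differed between CpG classes and 161 were called in each of the 4 groups.

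Leaving out each array in turn gave 4219 to 5332 genes called for the mean reading, 7335 to 7829 agreeing, 2442 to 3236 called members within the limit (1083 to 1429 higher, 1344 to 1807 lower), 220 to 422 called in each of the 4 groups, 659 to 829 differing between CpG classes and 1 to 6 with LIF. The single comparisons gave 2128 to 3415 calls (CpG-A vs medium), 2451 to 3927 (CpG-B vs medium), 2824 to 3439 (CpG-A + LIF vs LIF) and 4092 to 5053 (CpG-B + LIF vs LIF), and the separate fits 1614 to 3067 without LIF and 2865 to 3529 with LIF. Several of the lowest counts came without 1 of the 2 medium arrays, where the other is assumed to vary like the other groups.

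The labels do not say that replicate numbers pair the arrays, and they were not treated as pairs. Deviations of same-numbered arrays correlated at a median of 0.016 (-0.080 to 0.24 over 40 pairs), and 14 of 17 arrays matched best with their own number, a hint from the data that arrays with the same number share something. With the number as a block, 5366 genes were called, 7526 agreed in sign and 3173 were called members within the limit. Without 1 array, 10 to 13 genes of the unfolded protein response, 6 to 9 of MHC class I presentation and 17 to 20 of the proteasome were called higher, and 7 to 10 of the cell cycle lower. Among the mean readings of 73 named genes, none changed sign. Named genes such as Myd88, Stat2, Cd80 and Nfkbia were not among the 73. Their sign differed between the separate fits without and with LIF (0.41 and -0.61 in Myd88, -0.36 and 1.03 in Stat2). In Stat2, Cd80 and Nfkbia the readings lie on both sides of the fold, so the changed sign need not be a reversal with LIF. Among the 73, calls were lost in 4 genes without medium replicate 1, 4 in the comparison of 12 with 5 arrays, 6 without LIF only and 3 with LIF only. Cd40 gained a call without medium replicate 3, without CpG-A + LIF replicate 2 and without the noisiest genes.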

Other observations

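Some genes whose direction is unsettled had nearly the same reading in all 4 CpG groups, and are given as values chosen after they were seen. Cox6a2, a cytochrome oxidase subunit expressed in pDC, read -1.50 in CpG-A, -1.52 in CpG-B, -1.47 in CpG-A + LIF and -1.40 in CpG-B + LIF, and no CpG array overlapped the arrays without CpG. Traf1, an NF-kB target that binds TNF receptor family members, read 1.42, 1.60, 1.40 and 1.58 in the same order, and Nfkbiz, a nuclear NF-kB regulator, -1.33, -1.22, -1.62 and -1.44. Sqstm1, the autophagy receptor p62, read 1.17, 1.10, 1.31 and 1.17, and Atf4, a transcription factor of the integrated stress response, 1.00, 1.01, 0.97 and 1.11. Tfrc, the transferrin receptor, read -0.98, -0.92, -1.15 and -1.17, and Cdkn1b, the cell cycle inhibitor p27, -1.46, -1.20, -1.21 and -1.21.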
